A study of Homo sapiens with 28 samples.

Results

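Chromosome 1 carried 11175 of the 105048 accessibility peaks (10.64%) measured in Kuramochi, an established ovarian cancer cell line with mutant BRCA2. The members are the rows of the deposited count table whose chromosome is 1, with 6258 peaks on the short arm and 4917 on the long arm. The chromosome was selected on the measured values, namely its low peak counts in the adapted populations, known from earlier results of the same data. Therefore its shifts and its counts of changed peaks are given as a description, with no test of the chromosome against the others. All groups share the BRCA2-mutant genotype and were profiled by ATAC-seq in 2 libraries each. The untreated group is called C. Adapted populations are called T5 and T10, T20 and T40, T80, T160, and finally T320 after the dose, in uM, of olaparib, an inhibitor of the DNA repair enzyme PARP1, to which they had adapted. P10 and P320 are persister cells, which had not met the drug before 9 days at 10 or 320 uM. CD24 and CD44 were used to sort the C and T cells, the T cells as CD24 low and CD44 high, and none is named for P10 or P320. Sort and drug can therefore not be told apart wherever P is set beside C or T. No gate is given here for C, so sort and adaptation may also be inseparable between T and C. The labels do not say whether the 2 libraries of a group came from separate cultures, so every p-value measures the spread between these libraries, which may be technical.

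ATAC-seq counts insertions of the Tn5 transposase into open chromatin. A stretch of chromosome present in more copies offers more template, so the count of a peak follows both how open the site is and how many copies of it the cells hold. Chromosome 1 is the largest human chromosome, and ovarian and many other carcinomas often carry gains of its long arm and losses in its short arm. It holds PARP1, the p53 antagonist MDM4, the RAS gene NRAS, the transcription factor JUN, the surface mucin MUC1 and the S100 gene cluster. No DNA copy number was measured here, so copy number and accessibility cannot be told apart in any shift below.

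The start sites of 6 genes on which the results turn are shown by the 250 bases before the start site that lies under the gene's peak, read 5' to 3' on the gene's strand, from RefSeq (GRCh38.p14). PARP1 (minus strand, chromosome 1, 226408094 to 226408343) is the target of the drug. ELF3 (plus strand, 202010337 to 202010586) and OLFML3 (plus strand, 113979224 to 113979473) fell in T320. ECM1 (plus strand, 150507859 to 150508108) rose in T320 while its surroundings fell, CDKN2C (plus strand, 50968456 to 50968705) held its level while its surroundings fell, and WNT4 (minus strand, 22143098 to 22143347) rose in P320. Capitals mark every match, on either strand, to 4 motifs. These are the GC box GGGCGG (in 42.5% of the 34943 promoters of the table, with windows of the same length), the CCAAT box CCAAT (32%), the AP-1 site TGANTCA (6.59%) and the TATA box TATAAA (10.8%), and adjacent or overlapping matches run together.
PARP1: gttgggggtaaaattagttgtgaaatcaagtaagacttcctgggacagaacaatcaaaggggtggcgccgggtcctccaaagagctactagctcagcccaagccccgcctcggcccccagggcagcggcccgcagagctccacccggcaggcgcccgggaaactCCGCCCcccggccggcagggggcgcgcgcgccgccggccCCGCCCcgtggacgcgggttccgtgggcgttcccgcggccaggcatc
ELF3: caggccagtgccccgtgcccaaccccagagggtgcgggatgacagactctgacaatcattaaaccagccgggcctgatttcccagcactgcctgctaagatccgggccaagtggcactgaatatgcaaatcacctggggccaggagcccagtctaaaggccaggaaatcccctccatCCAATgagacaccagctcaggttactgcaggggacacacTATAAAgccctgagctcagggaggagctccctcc
OLFML3: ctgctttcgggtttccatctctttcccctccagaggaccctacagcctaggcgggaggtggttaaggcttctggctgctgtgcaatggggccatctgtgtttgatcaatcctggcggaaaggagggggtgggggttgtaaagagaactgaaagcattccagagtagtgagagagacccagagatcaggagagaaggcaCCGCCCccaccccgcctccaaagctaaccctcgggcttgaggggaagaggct
ECM1: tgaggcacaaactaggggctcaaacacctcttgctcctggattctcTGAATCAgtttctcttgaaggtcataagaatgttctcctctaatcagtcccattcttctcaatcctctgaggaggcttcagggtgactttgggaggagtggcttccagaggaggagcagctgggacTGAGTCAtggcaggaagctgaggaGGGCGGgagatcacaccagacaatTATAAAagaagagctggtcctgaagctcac
CDKN2C: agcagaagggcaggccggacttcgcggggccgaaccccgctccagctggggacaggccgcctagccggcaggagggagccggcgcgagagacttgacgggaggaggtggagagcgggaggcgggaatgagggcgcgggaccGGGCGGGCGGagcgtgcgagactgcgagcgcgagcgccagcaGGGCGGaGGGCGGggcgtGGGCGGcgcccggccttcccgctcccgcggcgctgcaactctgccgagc
WNT4: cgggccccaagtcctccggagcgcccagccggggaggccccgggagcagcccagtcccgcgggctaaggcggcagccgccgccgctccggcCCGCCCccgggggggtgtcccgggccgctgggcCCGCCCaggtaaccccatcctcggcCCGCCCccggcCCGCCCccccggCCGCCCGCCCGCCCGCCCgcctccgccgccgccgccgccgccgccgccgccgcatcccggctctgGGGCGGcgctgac
The WNT4 window held 9 GC boxes and 86.8% G and C, the CDKN2C window 5 GC boxes and 77.2%, and the PARP1 window 2 GC boxes and 70.4%. ECM1 held 2 AP-1 sites, 1 GC box and 1 TATA box at 50.4% G and C, ELF3 1 CCAAT box and 1 TATA box, and OLFML3 1 GC box. A match describes these letters and does not show that a factor binds there.

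The libraries held 9627970 to 29699950 counts in peaks, and in C and each T population replicate 1 was the shallower library. Peaks on chromosome 1 had a median width of 1105 bp, against 1121 bp elsewhere. Of them, 1678 (15.02%) were gene-end peaks, meaning that they reached within 1 kb of the start or the end of a protein-coding gene. Of the epithelial and ovarian markers on other chromosomes, KRT8, PAX8 and WT1 had a peak over the start site with at least 17.4 CPM (counts scaled to equal library size) in every library, and EPCAM, KRT18, MSLN and CDH1 had only a gene-end peak with at least 2.24 CPM. KRT7 had no such peak. Among the leukocyte markers on chromosome 1, PTPRC, CD2, CD53, CD48, CD247, SLAMF7 and CSF3R had no peak at either end, and among the endothelial markers SELE and SELP had none.

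Fewer counts fell on chromosome 1 in all 7 adapted populations than in untreated cells. It took 14.06% and 14.08% of all counts in peaks in the 2 C libraries. For T5 the shares were 11.79% and 11.8%, for T10 9.852% and 9.534%, for T20 8.625% and 8.026%, for T40 7.966% and 8.013%, for T80 8.576% and 8.385%, for T160 9.319% and 9.5%, and for T320 8.698% and 8.549%. It was 13.32% and 13.41% in P10 and 13.77% and 13.8% in P320. The T libraries thus did not overlap with the C libraries, and both libraries of each P group lay closer to C than any T library did.

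**Figure D1:**
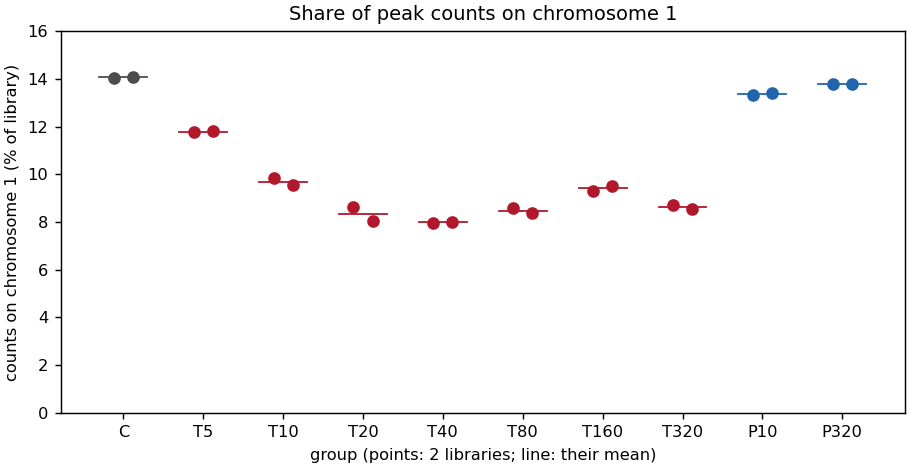
Share of all peak counts that fell on chromosome 1 (y axis, percent) in each library, by group (x axis); points are the 2 libraries of a group and the line is their mean. The C libraries sit at 14.06% and 14.08%, and every T library lies below every C and P library.

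The shift of a set of peaks was measured as the median, over its peaks, of the log2 CPM minus the mean log2 CPM of the 2 C libraries, centred so that the peaks of the other chromosomes have a median of 0. Over the whole chromosome the T5 libraries were at -0.29 and -0.32, those of T10 at -0.57 and -0.68, T20 at -0.77 and -0.92, T40 at -0.88 and -0.93, T80 at -0.79 and -0.87, T160 at -0.68 and -0.70, and T320 at -0.77 and -0.85. As means these correspond, relative to C, to 80.8% (T5), 64.7% (T10), 55.6% (T20), 53.5% (T40), 56.4% (T80) and 62% (T160), with 57.1% for T320. The shift was therefore larger at each dose from T5 to T40 and smaller after that, with T160 nearer to C than T80 or T320. P10 had -0.10 and -0.09 (93.5% of C) and P320 -0.06 and -0.05 (96.2%). Of the 23 chromosomes compared, chromosome 1 had the lowest median in each of the 7 adapted populations, with chromosome 9 next in T5 and chromosome 13 next in the others. It ranked 5 from the lowest in P10 and 7 in P320.

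Both arms and both kinds of peak took part. In T320 the short arm had a mean shift of -0.86 and the long arm -0.75, and in T40 the values were -0.92 and -0.87. Gene-end peaks, centred on the gene-end peaks of the other chromosomes, had -0.83 in both T320 libraries, and 94.93% of them lay below C. The remaining 9497 peaks had -0.75 and -0.85, with 80.95% below C. In T5 the short arm was at -0.36 (SD 0.02, n = 2) and the long arm at -0.25 (SD 0.02, n = 2). In P10 the short arm was at -0.03 and the long arm at -0.18, so the small P10 shift was mainly on the long arm.

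In windows of 5 Mb, of which 46 held at least 20 peaks, the shift reached across the chromosome. In T320 all 46 windows had a mean shift below 0, and 38 (82.6%) lay below -0.5, against 9.49% of 527 windows on other chromosomes. The number of windows below -0.5 was 3 for T5, 36 for T10, 43 for T20, 44 for T40, 42 for T80, 36 for T160, 5 for P10 and 0 for P320. The 2 libraries of a group differed by a median of 0.12 per window in T320 and by at most 0.42. The extreme windows differed between groups. The lowest T320 window was 120 to 125 Mb, at the end of the short arm (-1.69 and -1.27), and the lowest in T20, T40 and T80 was its neighbour at 115 to 120 Mb, with means of -1.46, -1.54 and -1.38. In T160 the lowest was 165 to 170 Mb on the long arm (-1.28 and -1.34). The T10 minimum was at 175 to 180 Mb (-0.79 and -1.18) and the T5 minimum at 0 to 5 Mb (-0.53 and -0.67). The highest window was 75 to 80 Mb in T5 (0.08 and 0.14), 240 to 245 Mb in T10, T20, T40 and T80 (means 0.07, -0.39, -0.47 and -0.30), 210 to 215 Mb in T160 (-0.06 and 0.03) and 190 to 195 Mb in T320 (-0.33 and -0.22). The last of these was the lowest window in both P groups, with -0.82 and -0.80 in P10 and -0.36 and -0.42 in P320, while 0 to 5 Mb was the highest in P10 (0.35 and 0.36) and 70 to 75 Mb in P320 (0.28 and 0.23).

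**Figure D2:**
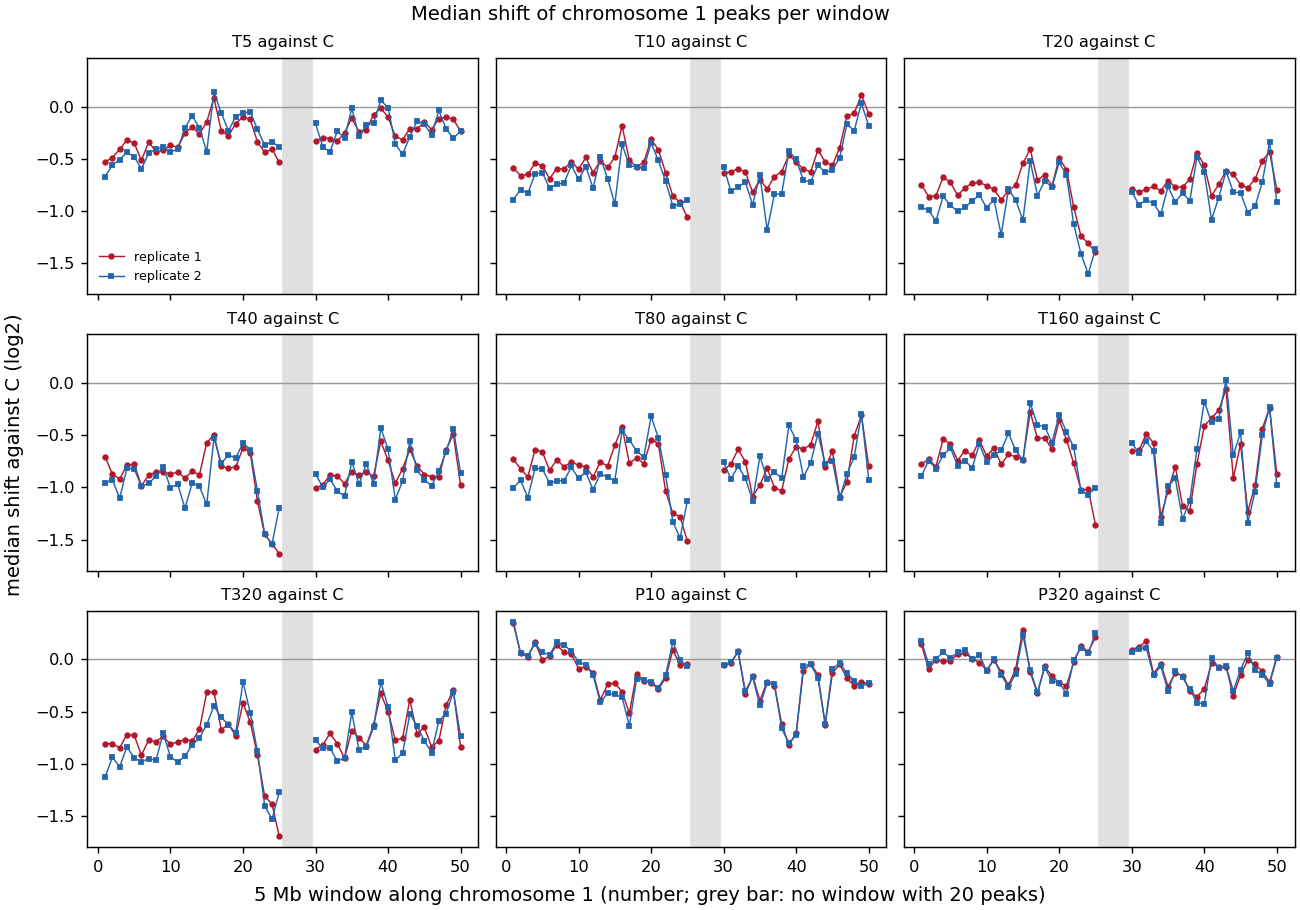
Median shift against C (y axis, log2) in each 5 Mb window along chromosome 1 (x axis, window number from the short-arm end), 1 panel per group, with a line for each of the 2 libraries; the grey bar covers windows without 20 peaks around the centromere. In T320 all 46 windows lie below 0 as a mean of the libraries, and the dip just left of the bar is the region down to -1.69.

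A joint segmentation of the 18 T and P libraries cut the chromosome into 26 segments at 25 breakpoints, each with a step of at least 0.3 in both libraries of at least 1 group. It places a boundary between 2 peaks and needs at least 50 peaks per segment, so it cannot show smaller pieces. With a smallest step of 0.5 it kept 17 breakpoints. With peaks that were not gene-end peaks alone it found 21, of which 20 lay within 1 Mb of the original ones. With at least 100 peaks per segment it found 22, of which 17 lay within 1 Mb of the original ones. That setting cannot show the short segments described below, and some of their boundaries were missing. With values centred within kind of peak and level of mean count it found 22, of which 19 lay within 1 Mb of the original ones. The breakpoints differed in which populations shared them.

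The deepest broad segment spanned the centromere, from 108962201 on the short arm to 145722231 on the long arm, with 597 peaks. Its shift was -1.33 and -1.41 in T320 (38.7% of C). By dose, the mean of T5 was -0.40, of T10 -0.89, of T20 -1.37, of T40 -1.48, of T80 -1.34 and of T160 -1.01, against 0.03 for P10 and 0.13 for P320. Its 111 gene-end peaks had a T320 median of -1.28 and its other peaks -1.43, so both kinds were low. The left boundary lay between 108913922 and 108962201, between GPSM2, which orients the mitotic spindle, and CLCC1, an endoplasmic reticulum chloride channel. Across it the T320 libraries stepped down by -0.73 and -0.83, while P320 stepped up by 0.35. The right boundary lay between 145722231 and 145782172, between CD160, a lymphocyte receptor, and RNF115, a ubiquitin ligase, with steps of 0.57 and 0.55 in T320. This region of the long arm holds many near-identical gene copies, where reads may be shared between copies.

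Of the 7 listed genes with a peak in that segment, all 7 had both T320 libraries below both C libraries, as had 33% of all peaks, and 5 were lost. Since the segment was cut and picked out on these same libraries, the counts only describe it. A call of lost or gained needs a Benjamini-Hochberg adjusted p below 0.05 in edgeR's quasi-likelihood test, together with an absolute log2 fold change of 1 or more. NRAS, a RAS GTPase, had 16.9 and 17.8 CPM in C and 6.34 and 9.37 in T320, a log2 fold change of -1.13 (SE 0.22, edgeR adjusted p = 0.0004). It was no longer called without T320 replicate 1 (-0.89). CD58, the ligand of the T cell receptor CD2, had 17.8 and 23.7 CPM in C and 6.25 and 9.23 in T320 (-1.41, SE 0.28). SLC16A1, a lactate transporter, had -1.08 and was not called without T320 replicate 1 (-0.90) or C replicate 2 (-0.89). DCLRE1B, a nuclease in crosslink repair whose peak also covers the start of AP4B1, had -1.03 and was not called without T320 replicate 1 (-0.93) or C replicate 2 (-0.64). OLFML3, a secreted matrix glycoprotein, had 13 and 14.2 CPM in C and 3.34 and 2.69 in T320 (-2.20, SE 0.22), the largest of the 5. When the median shift of each 5 Mb window was taken out of each library (the window offset), 0 of these 7 peaks were called. NRAS then had 0.16, SLC16A1 0.21, DCLRE1B 0.26, CD58 -0.02 and OLFML3 -0.92.

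On the short arm the other deep segments were 2321734 to 6702427 and 26929740 to 28194154. The first had -0.98 and -1.43 in T320 and lay between MORN1 and DNAJC11, with a step up of 0.84 toward CAMTA1, a calmodulin-binding transcription activator, at its right end. The second had -1.28 and -1.40 in T320 and lay between KDF1, a regulator of keratinocyte growth, and PTAFR, the platelet-activating factor receptor. It was already the lowest segment in T5, with a mean of -0.80, and both of its boundaries stepped by at least 0.3 in both libraries of all 7 adapted populations but in neither P group. Its 39 gene-end peaks had -1.16 in T320. Of the remaining boundaries on this arm, the 1 near SKI and MORN1 was shared by 6 adapted populations and the 1 near ERRFI1 and SLC45A1 by all 7. A boundary inside KAZN, with PRDM2 to its left, reached the step in T80 alone, and a boundary between USP24 and PLPP3 reached it in P10 alone.

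Several short segments stayed near or above C in T320, and most of them did so through peaks away from gene ends. From 75672211 to 77040445, between ACADM, a mitochondrial dehydrogenase, and ST6GALNAC5, a sialyltransferase, the 50 peaks had 0.40 and 0.59. The 5 gene-end peaks among them had a median of -0.23 and the others 0.60. From 208374542 to 211135617, between CAMK1G and KCNH1, a potassium channel gene, the 96 peaks had 0.30 and 0.38, with -0.43 in 11 gene-end peaks and 0.52 in the others. The 50 peaks between HLX, a homeobox gene, and DUSP10, a phosphatase of stress kinases, had 0.02 and 0.03, and their 2 gene-end peaks -0.63. The 55 peaks between ATP1B1, a sodium pump subunit, and MROH9 had -0.19 and -0.12, and their 9 gene-end peaks -0.65. In these 4 segments the gene-end peaks were thus low while the rest were not. The segment from 239361146 to 241425281 differed, since both kinds were high. It runs from CHRM3, a muscarinic receptor, to RGS7, a regulator of G protein signalling. Its 53 peaks had 0.84 and 1.12 in T320 (197% of C), its 4 gene-end peaks 0.89 and its other peaks 0.94. By dose, the mean of T5 was -0.31, of T10 0.16, of T20 0.27, of T40 0.51, of T80 0.71 and of T160 0.27, and it was -0.22 for P10 and -0.14 for P320. In T320, 28 of its 53 peaks were gained (52.8%), against 4.39% of all chromosome 1 peaks and 15% of all 105048 peaks. The segment was cut and picked out on these same values, so this count only describes it. Its right boundary was missing with at least 100 peaks per segment, without gene-end peaks and with the centring on kind and count.

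**Figure D3:**
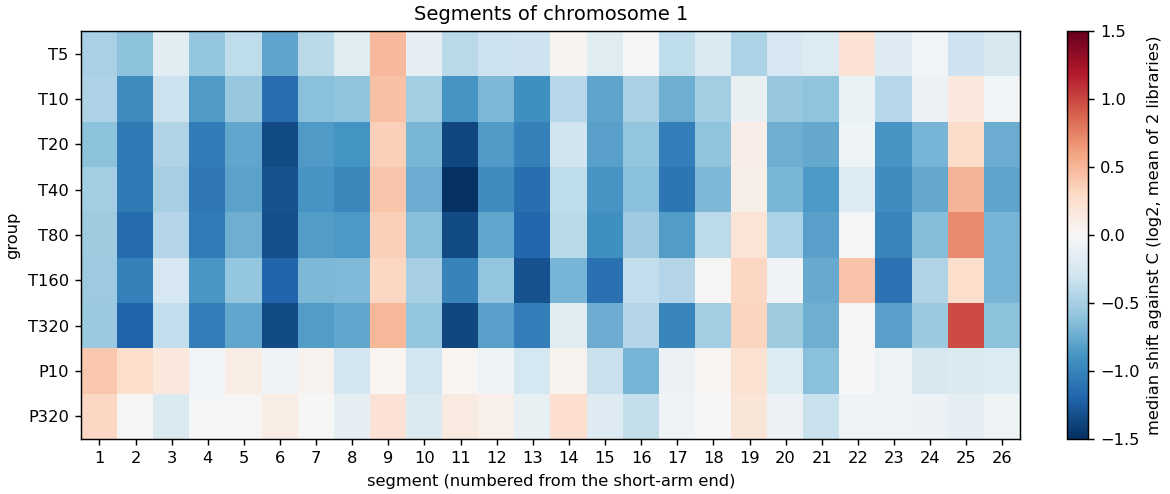
Mean of the 2 libraries' median shifts against C (colour, log2) for each of the 26 segments of chromosome 1 (x axis, numbered from the short-arm end) in each group (y axis). Segments 6 and 11 are the darkest blue, at -1.34 and -1.37 in T320, and segment 25, at 0.98 in T320, is the darkest red.

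The long arm separated the adapted populations from each other. T10 was near C over the end of the arm. From 234326197 to 239141066 it had -0.06 and -0.12, while T20 had -0.63 and -0.75, and from 241518626 to the end at 248925330 it had 0.02 and -0.10, while T20 had -0.72 and -0.77. The boundary on the left lay between SLC35F3, a thiamine transporter gene, and COA6, an assembly factor of cytochrome oxidase. It reached the step in T10 and T160 alone, and it was missing with at least 100 peaks per segment and without gene-end peaks. The gene-end peaks followed, with medians of -0.17 and -0.02 in T10 and -0.63 and -0.85 in T20. Of 7 listed genes there, 5 had both T10 libraries above both T20 libraries, as had 21.2% of all 105048 peaks. That count describes segments picked out on the same libraries and adds no separate support. EXO1, a DNA repair exonuclease, had 27.7 and 35.8 CPM in C, 28.2 and 29.6 in T10, 19.2 and 23.9 in T20 and 20.9 and 20.7 in T320. FH, fumarate hydratase of the citric acid cycle, had 29.8 and 51.3 in C, 35.3 and 46.2 in T10 and 28.6 and 31.3 in T20. In both genes the T10 libraries overlapped with C, and the T20 libraries lay below T10. The difference between T10 and T20 was not tested.

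T160 had a pattern of its own kind on the same arm. It was lower than T80 and T320 from 164166412 to 169050101, with -1.29 and -1.32 against -1.16 and -1.20 in T80 and -1.03 and -1.05 in T320. From 171142488 to 189531030 it had -1.10 and -1.14, against -0.97 and -0.87 in T80, and from 221741177 to 234315650 a mean of -1.11, against -0.99 in T80 and -0.81 in T320. It was higher from 200888029 to 207085143, with -0.42 and -0.47 against -0.69 and -0.99 in T80 and -0.84 and -1.12 in T320. From 207172567 to 208310659 it was at 0.02 in both libraries, and from 211236718 to 214673785 it had -0.09 and -0.02, against means of -0.48 in T80 and -0.53 in T320. In the 3 higher segments 10 of 12 listed genes had both T160 libraries above both T320 libraries, and 8 had them above both T80 libraries. Of all peaks 22.7% and 17.5% had. The segments were cut and picked out on values of these same libraries, so the gene counts only describe them. MDM4 had 34.2 and 54.8 CPM in C, 38.5 and 40.3 in T160, 24.1 and 29.3 in T80 and 23.4 and 27 in T320. DTL, a subunit of a replication-linked ubiquitin ligase, had 54.6 and 76.2 in C, 88.9 and 99.9 in T160, 59.2 and 56.2 in T80 and 39.7 and 46.8 in T320. T160 was thus the adapted population in which MDM4 overlapped with C and DTL lay above it. In the 2 lower segments between 164 and 190 Mb, 6 of 8 listed genes had both T160 libraries below both T80 libraries, and 3 had them below both T320 libraries while 5 overlapped. Of all peaks 18.4% and 24.6% lay below. These gene counts, too, only describe segments picked out on the same values. UCK2, a uridine and cytidine kinase gene, had 15.5 and 12.6 CPM in T160 and 18.1 and 20.3 in T80, and its T320 libraries lay above T160 at 16.4 and 20.5. In the lower segment from 221741177 the log2 fold changes of listed genes went both ways. WNT3A and EPHX1 had -1.68 and -0.02 in T160, above -1.86 and -0.11 in T80 and -2.29 and -0.32 in T320. H3-3A, WNT9A and ABCB10 had -1.03, -0.84 and -0.78 in T160, below -0.51, -0.47 and -0.50 in T80 and -0.64, -0.66 and -0.40 in T320. PARP1 had -0.68 in T160, between -0.77 in T320 and -0.51 in T80. These differences between adapted populations were not tested.

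Peak by peak, lost peaks outnumbered gained ones in every comparison. In T320 against C 4215 chromosome 1 peaks were called, where 30.5% of all 105048 peaks were. They were 491 gained (4.39%) and 3724 lost (33.3%), against 15% and 15.5% of all peaks. On the other chromosomes 16.2% were gained and 13.4% lost. For T5, 222 peaks were gained and 865 lost, where 4.73% and 4.46% of all peaks were. For T10, 240 peaks were gained and 2324 lost, where 8.51% and 9.22% of all peaks were. For T20, 268 peaks were gained and 3597 lost, where 11.2% and 13.3% of all peaks were. For T40, 256 peaks were gained and 3757 lost, where 11.8% and 13.3% of all peaks were. For T80, 305 peaks were gained and 3553 lost, where 12.3% and 13.6% of all peaks were. For T160, 322 peaks were gained and 3119 lost, where 11% and 12.5% of all peaks were. Among the persisters, P10 had 788 gained and 1549 lost, where 9.32% and 12.8% of all peaks were. For P320, 308 peaks were gained and 875 lost, where 3.94% and 7.91% of all peaks were. Over all peaks the share called either way was 9.19% (T5), 17.7% (T10), 24.5% (T20), 25.2% (T40), 26% (T80), 23.5% (T160), 22.1% (P10) and 11.8% (P320). The P320 shares on chromosome 1, 2.76% gained and 7.83% lost, were near the 4.08% and 7.92% on the other chromosomes. All comparisons share the C libraries. Single libraries weighed on some totals. The 1087 calls of T5 became 514 when C replicate 2 was left out, 644 when its own replicate 1 was and 327 when its replicate 2 was. T10 had 1445 calls without T10 replicate 2, T20 had 2492 without T20 replicate 2, and P10 had 1227 without C replicate 2 and 1520 without P10 replicate 2. P320 had 576 calls without P320 replicate 1 and 570 without P320 replicate 2. The gains in T320 alone were 297 without C replicate 2 and 273 without T320 replicate 2. In P320 the split also depended on scaling, since 54 peaks were gained and 2572 lost when libraries were scaled on gene-end peaks, which held 38.2% and 37.5% of the P320 counts against 27.8% and 31.8% in C.

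With the window offset gained and lost peaks were near in number in T320, with 1271 gained (11.4%) and 1359 lost (12.2%) against 13% and 12.8% elsewhere. Of all peaks 25.6% were then called, 12.8% gained and 12.8% lost. With the offset T5 had 387 gained and 429 lost peaks, where 3.79% and 3.7% of all peaks were. With the offset T10 had 665 gained and 764 lost peaks, where 6.92% and 7.33% of all peaks were. With the offset T20 had 854 gained and 1130 lost peaks, where 8.95% and 10.7% of all peaks were. With the offset T40 had 851 gained and 1080 lost peaks, where 9.25% and 10.1% of all peaks were. With the offset T80 had 953 gained and 1169 lost peaks, where 10% and 10.9% of all peaks were. With the offset T160 had 885 gained and 1140 lost peaks, where 9.02% and 10.3% of all peaks were. With the offset P10 had 956 gained and 1143 lost peaks, where 9.05% and 11% of all peaks were. With the offset P320 had 362 gained and 701 lost peaks, where 3.54% and 6.73% of all peaks were. Over all peaks the share called either way with the offset was 7.49% (T5), 14.2% (T10), 19.7% (T20), 19.4% (T40), 20.9% (T80), 19.3% (T160), 20% (P10) and 10.3% (P320). The offset removes any shift shared by a window, whatever its source. Of the 3724 lost peaks 1359 (36.5%) kept their call, all 491 gained peaks kept theirs, 780 peaks were newly gained and 0 newly lost. All 46 windows had a mean shift below 0 in T320, so the offset raises fold changes there. The kept and new gains, the dropped losses and the near balance of both therefore follow largely by construction. Lost peaks kept the call in 49.5% (T5), 32.8% (T10), 31.4% (T20), 28.7% (T40), 32.9% (T80), 36.5% (T160), 69.1% (P10) and 75.7% (P320) of cases. In all 7 adapted populations 31 chromosome 1 peaks were gained and 612 lost, where 1.68% and 2.39% of all peaks were. With the offset the counts were 121 and 215, where 1.29% and 1.93% of all peaks were.

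Named genes were read at the peak over their start site, or at a gene-end peak where no peak covered it. Of 185 genes in 12 lists, 156 had such a peak, 124 of them over the start site. Among all 1678 gene-end peaks of chromosome 1, 1.07% were gained and 22.1% lost in T320, with a median log2 fold change of -0.67, which is the level against which the lists below can be read.

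PARP1, the enzyme that olaparib blocks, had 20.9 and 27.6 CPM in C, 11.6 and 16.7 in T320 and 50.8 and 44.1 in P320, at 226406567 to 226408730. T320 lay below C and P320 above it, with no overlap. The log2 fold change was -0.77 in T320 (SE 0.22) and 0.96 in P320 (SE 0.21), and neither was called, since both missed a fold change of 1. With the window offset T320 had 0.01, while P320 had 0.93. In T320 PARP1 was called without T320 replicate 2 (-1.07), and in P320 without P320 replicate 2 (1.10) or C replicate 2 (1.18). Between them the other adapted libraries ran from 14.5 CPM in T160 to 21.7 in T5, and P10 had 31.7 and 37.4.

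The epithelial genes held more losses than the other lists. Of 13 with a peak, 7 were lost in T320 and 0 gained, with a median of -1.19, against -0.67 over the gene-end peaks. MUC1, a transmembrane mucin, had 91.8 and 87.3 CPM in C, 36 and 42.5 in T320 and 113 and 108 in P320, and its T320 change was -1.19 (SE 0.17). ELF3, an epithelial ETS transcription factor, had 37.8 and 33 in C and 15.9 and 13.6 in T320 (-1.27, SE 0.18), while T5 had 48 and 55.5 and P10 62.5 and 64.8. ELF3 thus lay above C in the lowest dose and in P10, and below it in T320. Further lost members were GRHL3 (-1.47), a grainyhead transcription factor of epithelia, the tight junction protein gene F11R (-1.39) and the laminin chain gene LAMB3 (-1.37), with F11R read at a gene-end peak. LAMB3 was not called without C replicate 2 (-0.997). With the window offset none of these 5 was called, with -0.49 for MUC1, -0.48 for ELF3, -0.72 for GRHL3, -0.57 for F11R and -0.63 for LAMB3. LAMB3 lay in the segment between CAMK1G and KCNH1, which was above C in T320 except at its gene-end peaks. Its window crosses the left boundary of that segment and had a median log2 fold change of -0.73. The offset for LAMB3 thus mixes segments with unlike shifts. Across the doses the losses numbered 2 (T5), 5 (T10), 6 (T20), 7 (T40), 4 (T80) and 3 (T160). Of the chromosome 1 gene-end peaks 3.99% (T5), 9.42% (T10), 16.8% (T20), 17.4% (T40), 15.3% (T80) and 14.7% (T160) were lost. In P320 0 of the 13 were called, with a median of 0.10.

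Matrix and mesenchymal genes moved both ways in T320, with 1 gain and 4 losses among 15 (median -0.52). ECM1, extracellular matrix protein 1, rose from 4.19 and 2.64 CPM in C to 7.02 and 7.26 in T320, a change of 1.09 (SE 0.31) that was 1.85 with the window offset. This call was lost without C replicate 2 (0.77) or with scaling on gene-end peaks (0.97). The lost members were the collagen genes COL8A2 (-2.02) and COL9A2 (-1.54), OLFML3 and NES (-1.34), which encodes the intermediate filament nestin. COL8A2, read at a gene-end peak, was still lost with the offset (-1.21).

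Growth signalling genes had 2 losses among 16 in T320 (median -0.63). WNT3A, a Wnt ligand, fell from 37.1 and 59.1 CPM to 11.2 and 8.69 at a gene-end peak (-2.29, SE 0.24, and -1.51 with the offset). NRAS, described above, was the other loss.

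Repair and cell cycle genes mostly stayed short of a call. DNA repair and replication stress genes had 1 loss of 14 in T320 (DCLRE1B), with a median of -0.62 and 0.19 with the offset. Cell cycle genes had 1 loss of 15, the transcription factor gene E2F2, which had 29.5 and 29.7 CPM in C and 15.8 and 10.9 in T320 (-1.16, SE 0.19). E2F2 was not called without T320 replicate 2 (-0.91) or with the window offset (-0.42). CDKN2C, an inhibitor of CDK4 and CDK6, stayed level instead, with 29.7 and 47.3 CPM in C and 38.9 and 55.8 in T320 (0.30, SE 0.26). The libraries overlapped, and with the window offset it was gained (1.11). MDM4 had -0.82 in T320, not called, and -0.03 with the offset. It was called without C replicate 1 (-1.12).

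The remaining lists had few calls in T320. AP-1, immediate early and stress genes had 0 of 15 called (median -0.51), and JUN had 76.5 and 110 CPM in C and 58.9 and 71.7 in T320 (-0.51, and 0.25 with the offset). Chromatin regulators had 0 of 16 called (-0.60). Metabolic and detoxification genes had 1 loss of 20 (SLC16A1). CTPS1, which makes CTP, had 28.5 and 42.1 CPM in C and 17.4 and 24.5 in T320 (-0.75, not called, and -0.12 with the offset), and it was called without T320 replicate 2 (-1.03). Interferon and innate immunity genes had 1 loss of 14 (CD58), and S100 genes 1 of 13, S100A5 (-1.13), which was not called without T320 replicate 1 (-0.93) or C replicate 1 (-0.92). Of the leukocyte markers FCER1G was lost (-1.29, not called without T320 replicate 2, -0.98), and of the endothelial markers TIE1 (-1.69). The summed level of the 7 leukocyte peaks was 83.5 and 86.2 CPM in C, 58 and 56.6 in T320 and 95.2 and 97.5 in P320, and that of the 2 endothelial peaks 12.1 and 10.2 in C, 4.97 and 3.5 in T320 and 7.27 and 9.14 in P320. Among the leukocyte peaks, that of FCGR2A, a gene-end peak, is also the start-site peak of HSPA6 on the stress list. The part of other cell types in these results was not tested.

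**Figure D4:**
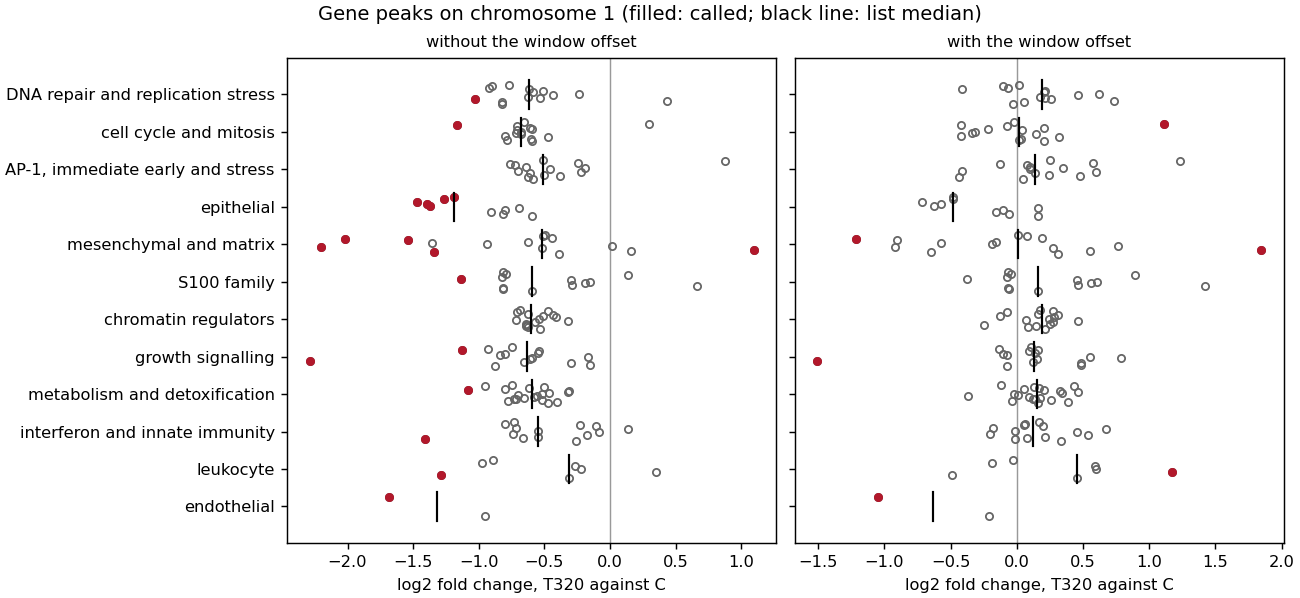
Log2 fold change of T320 against C (x axis) at the peak of each gene, by list (y axis), without the window offset on the left and with it on the right; filled points were called gained or lost, and the black line is the median over all measured members of the list, including a few whose points are not drawn. The epithelial median lies at -1.19 on the left and -0.48 on the right.

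Cells exposed for 9 days showed a different set of changes. In P320 8.76% of the chromosome 1 gene-end peaks were gained and 1.49% lost, with a median of 0.28, and these calls rest on the scaling described above. Growth signalling had 5 gains of 16 and 0 losses (median 0.80). WNT4, a Wnt ligand of the female reproductive tract, had 12.8 and 6.27 CPM in C, 28.1 and 32.5 in P320 and 28.4 and 25.5 in P10, against 7.62 and 4.88 in T320. It was high in all 4 P libraries and overlapped with C in T320. Its P320 change was 1.70 (SE 0.32), and 1.17 with scaling on gene-end peaks. The others were WNT9A (1.14), the ephrin receptor gene EPHB2 (1.16), ERRFI1 (1.26), an inhibitor of the EGF receptor, and the kinase gene JAK1 (1.11), which was not called without C replicate 1 (0.88). None of these 4 was called with scaling on gene-end peaks, where they had 0.65, 0.67, 0.77 and 0.63.

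Chromatin regulators had 3 gains of 16 in P320 (median 0.69). PRDM2, a zinc finger protein of the PR domain family, had 11 and 15.4 CPM in C, 44.3 and 43.4 in P320, 33.7 and 30.8 in P10 and 9.16 and 8.74 in T320. It was 1.72 higher in P320 (SE 0.19, edgeR adjusted p = 2.9e-05), and was still called with scaling on gene-end peaks (1.25). PRDM16 (1.39), of the same family, and CHD5 (1.10), a chromatin remodeller, were not called with that scaling (0.89 and 0.59), nor was CHD5 without P320 replicate 2 (1.02) or C replicate 2 (0.85). Single gains elsewhere were TP73 (1.04), a relative of p53, ECM1 (1.22), the glucose transporter gene SLC2A1 (1.01), the mitochondrial transporter gene ABCB10 (1.22) and RUNX3 (1.52). Of these only RUNX3, a Runt transcription factor gene on the leukocyte list, was called with scaling on gene-end peaks (1.02). TP73 and SLC2A1 were not called without C replicate 1 (0.96 and 0.73) or with the window offset (0.87 and 0.99), and ABCB10 had 0.79 without it and 1.85 without C replicate 2. ECM1 was not called without C replicate 2 (0.89) or P320 replicate 1 (1.22). GBP5, an interferon-induced GTPase, was the only listed loss (-1.24), and was not called without C replicate 2 (-0.99) or either P320 library (-1.17 and -1.22). CTPS1 had 67.9 and 63.6 CPM in P320 (0.89, not called, but called without C replicate 2, 1.21). MDM4 (-0.11), MUC1 (0.30) and JUN (0.18) were not called, and their signs turned in some settings.

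Single peaks departed from their window by far more than the chromosome's shift. In T320 the middle 90% of residuals, the difference between a peak's log2 fold change and its window's median, ran from -1.71 to 1.63. For gene-end peaks the range was -0.96 to 0.95. At least 2 above lay 320 peaks and at least 2 below lay 334, and 9 of each set were gene-end peaks. The 6 peaks farthest above and the 6 farthest below included no gene-end peak. They were chosen for that distance, among peaks without overlap with the C libraries, and so are described with no test. Windows can cross breakpoints, so part of a distance can be the shift of the peak's own segment. The peaks at 209080242 and 76658912 lay in segments above C in T320, while their windows had medians of -0.73 and -0.35. The GPR89A peak lay in the deep segment across the centromere, while its window had -0.76.

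The peak farthest above lay inside AZIN2, a regulator of polyamine synthesis, at 33099128 to 33100269. It had 5.09 and 2.12 CPM in C, 13.8 and 12 in T10, 15.3 and 17.3 in T80 and 28.9 and 34.5 in T320, with 1.48 and 1.86 in P320. T320 was higher than all other populations there, and P320 was below C. The next lay at 209080242 to 209080755, over 50 kb from the nearest protein-coding gene, and had 1.23 and 0.33 CPM in C and 4.79 and 8.38 in T320. A peak 21573 bp from ST6GALNAC3, a sialyltransferase gene, at 76658912 to 76660070, had 2.87 and 0.943 CPM in C, 6.99 and 4.66 in T5 and 17.2 and 23.7 in T320, so that it lay above C in the lowest dose already. Inside ROR1, a receptor of Wnt ligands, the peak at 64132890 to 64133824 had 2.38 and 1.13 CPM in C and 10.9 and 17.1 in T320. The peaks at 115168414 (1.64 and 0.943 CPM in C, 5.22 and 7.12 in T320) and inside CR1L at 207707006 (0.903 and 0.519, 4.11 and 6.09) completed the 6. In none of the 6 did both P320 libraries lie above both C libraries.

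The peak farthest below lay inside GPR89A at 145658440 to 145659316. It had 4.19 and 4.48 CPM in C, 0.948 and 1.22 in T5, 0 and 0.0448 in T320 and 4.24 and 4.09 in P320. In T320 this was 1 count over both libraries against 146 in C, or 0.673% of the C level (95% exact interval 0.0169% to 3.81%, counting error only). GPR89A has a near-identical copy, GPR89B, so the reads cannot be assigned to it with certainty. At 120942052 to 120942917, over 50 kb from the nearest gene, the peak had 4.19 and 6.41 CPM in C, 3.06 and 3.71 in T10, 0.832 and 0.331 in T20 and 0.171 and 0.0896 in T320. In log2 fold change against C it went from -0.65 in T10 to -3.27 in T20. It then went from -2.81 in T160 (0.422 and 1.05 CPM) to -5.41 in T320, a step of similar size. A peak 22243 bp from NBPF3, a member of a repeated gene family, had 5.17 and 7.5 CPM in C and 0.342 and 0.179 in T320, and it was low in P320 as well (1.06 and 1.08). The peak inside LRRC52 at 165549710 to 165550601 had 19.1 and 31.7 CPM in C and 10.7 and 14.1 in T5. The T10 libraries had 2.7 and 2.19, those of T320 1.37 and 0.717 and those of P320 5.05 and 4.61. It was the most accessible of the 6 in C, and all T and P libraries lay below C. The peak at 238014635 had 10.3 and 14.9 CPM in C and 1.11 and 0.448 in T320, and the peak inside PGBD2, a transposase-derived gene, at 248881610 had 15.6 and 17.3 in C and 1.03 and 0.762 in T320.

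**Figure D5:**
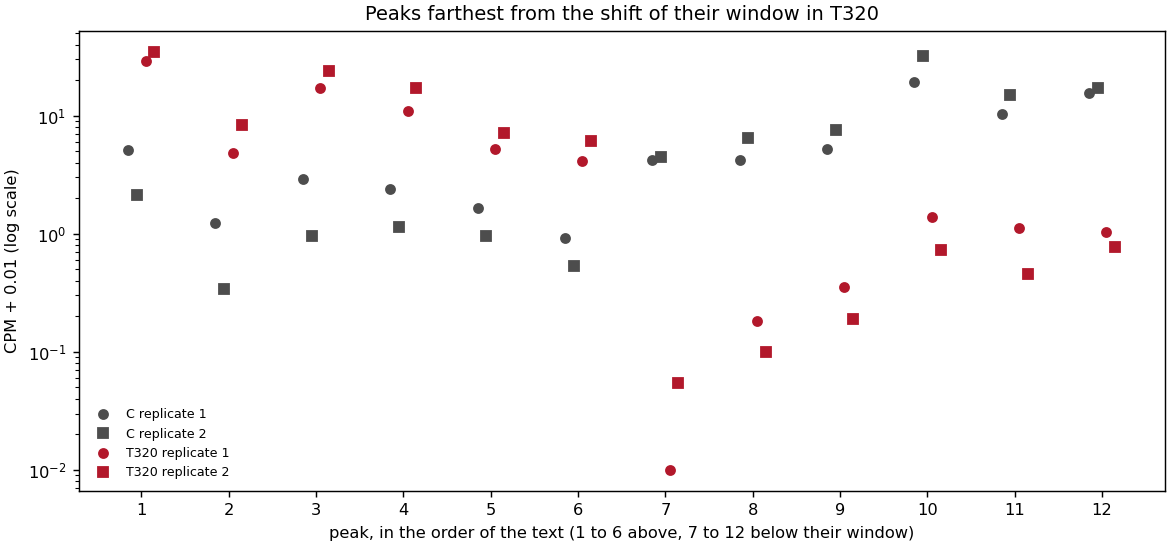
CPM plus 0.01 (y axis, log scale) in the 2 C and 2 T320 libraries for the 6 peaks farthest above and the 6 farthest below their window in T320 (x axis, in the order of the text); each point is 1 library. The 12 peaks were chosen among those whose T320 and C libraries do not overlap, so that separation was fixed by the choice. Peak 7, inside GPR89A, is at 0 in T320 replicate 1.

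In P320 the peaks farthest from their window were others. Above it lay peaks inside MYOM3 at 24105374 (2.22 and 2.07 CPM in C, 13.9 and 13 in P320), CNST at 246597151 (3.53 and 1.79, 16.3 and 13.9) and PGD at 10414963 (3.94 and 2.12, 16.3 and 14.8). PGD encodes an enzyme of the pentose phosphate pathway, and its peak was also high in P10 (14.2 and 12.9 CPM), whereas the MYOM3 peak was not (1.85 and 2.66). Below their window lay the peaks at 227416239 (3.36 and 7.45 CPM in C, 0.106 and 0.892 in P320) and 178625600 (6.07 and 8.91, 0.671 and 0.669) and a peak inside SNX27, a sorting nexin gene, at 151681898 (2.46 and 3.72, 0.212 and 0.446). The peak at 178625600 was low in every T population too, with 2.05 and 1.75 CPM in T320.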

How the data were processed

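The authors deposited read counts per consensus peak for 20 of the 28 labelled samples, as whole numbers with no normalization. The other 8 samples match none of its columns and were left out. Per the submitters' processing notes the build was hg38 (GRCh38) and the tools named were deepTools 3.1 and 3.5.1, HOMER 4.1, Bowtie2, MACS2, DESeq2, Picard, Trim Galore and SAMtools; their roles, and whether starts count from 0, are not given in the sources used here. Depth sets the precision, and in C and all T groups replicate 1 was the shallower library.

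Counts of all 105048 peaks entered a robust quasi-likelihood model (edgeR 4.0.16 in R 4.3.3, scaled by TMM) over 10 groups with no replicate block, and p-values were adjusted over all peaks. CPM use TMM-scaled totals, and errors are standard errors of the fit. Shifts used log2 CPM with a prior count of 2. Segmentation was by optimal partitioning of values limited to ±2, and both procedures were tested on simulated data. Alternatives were other scalings, the window offset, the block, filters, DESeq2 1.42.0, a fit of the compared groups alone, no fold minimum and leaving out each library. Genes were placed with RefSeq positions (GRCh38.p14, no strand). The members and lists were chosen with earlier results of these data known. Named genes were the 2 called members per list that had the lowest adjusted p, in T320 and in P320, with PARP1, CTPS1, MDM4, MUC1 and JUN in any case, the 6 and 6 (T320) or 3 and 3 (P320) peaks of at least 2 CPM farthest from their window without overlap with C, and genes beside breakpoints. Other names were chosen after their values were seen, and a few list members are counted but not reported here.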

Additional observations from a re-analysis of the deposited data

Results flagged for a closer look

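In 3 segments both T320 libraries lay on the other side of C from both P320 libraries, each by more than 0.1. The segment from 0.8 to 2.32 Mb had a mean shift of -0.55 in T320 and 0.31 in P320, the segment from 108.96 to 145.72 Mb had -1.37 and 0.13, and the segment from 169.06 to 170.97 Mb had -0.16 and 0.25. The T320 and P320 shifts share the C libraries, and their difference was not tested. Groups of 2 libraries are too small to look for a library that stands apart.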

How the results depend on the processing

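With the window offset the counts of called chromosome 1 peaks were 1429 (T10), 1984 (T20), 1931 (T40), 2122 (T80), 2025 (T160) and 2630 (T320), against 2564, 3865, 4013, 3858, 3441 and 4215. Without a fold minimum T5 had 1665 calls (main 1087), P10 3696 (2337) and P320 2049 (1183), and P320 had 2626 with scaling on gene-end peaks. Leaving out 1 library gave 327 to 1087 calls (T5), 1445 to 2498 (T10), 2492 to 4039 (T20), 3113 to 4292 (T40), 2766 to 3966 (T80), 2396 to 3332 (T160), 3194 to 4502 (T320), 1227 to 2811 (P10) and 570 to 1131 (P320), with the spread of a lone library taken from the other groups. The replicate block moved no count by over 1.5 times (T5 1586, T320 4565), except together with the window offset in T10 (1705), T20 (2217), T40 (2204) and T80 (2395). By the labels, libraries of equal number share only a number. Their deviations nevertheless correlated at 0.176 to 0.607 among C and T groups, a shared part that the main fit, without the block, leaves in. The correlation was -0.012 between C and P10 and -0.093 between C and P320. Number and depth run together.

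Directions turned with the window offset in T320 for PARP1 (0.013, and 0.0079 with the block), JUN (0.25 and 0.26), DCLRE1B (0.26 and 0.27), NRAS (0.16 and 0.15) and SLC16A1 (0.21 and 0.20), where the offset by construction removes the shift of the window. In P320 they turned with scaling on gene-end peaks for MUC1 (-0.20) and JUN (-0.29). Leaving out 1 library, JUN ran from -0.056 (without C replicate 1) to 0.46 and MDM4 from -0.41 to 0.27 (without C replicate 2), with 0.06 without P320 replicate 2. The number of breakpoints was 17 to 25 over all settings. The cause of these differences was not otherwise tested. Depth limits peaks of a few CPM, where 1 library can decide a call.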

Other observations

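In P10 the chromosome 1 lists had calls that the text above does not give. Of the S100 genes, 3 of 13 were gained (S100A3, S100A8 and S100A12), with a median log2 fold change of 0.43, and 0 were lost. Cell cycle and mitosis genes had a median of -0.72 with 0 of 15 called, against 0.01 over the chromosome 1 gene-end peaks. Matrix genes had 2 gains of 15 (COL8A2 and ECM1), chromatin regulators 2 of 16 (PRDM2 and PRDM16), growth signalling 2 of 16 (EPHB2 and WNT4), and the leukocyte list 1 of 7 (RUNX3). IFI44 of the interferon list was lost. In P10 6.02% of the chromosome 1 gene-end peaks were gained and 3.75% lost.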
